A study of Mus musculus with 23 samples.

Results

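The 10 genes described here, Ttr, Kl, Folr1, Clic6, Kcne2, Otx2, Slc4a5, Cldn2, Sostdc1 and Tmem72, are known for their expression in the epithelium of the choroid plexus. They were chosen by symbol from the 24421 rows of a gene count table of the mouse hippocampus, and all 10 had a row. The choroid plexus is a fold of epithelium, vessels and stroma that hangs in the brain ventricles and borders the hippocampus. Its epithelial cells secrete cerebrospinal fluid through ion transporters and channels, close the border between blood and fluid with tight junctions, and release carrier proteins such as transthyretin, which binds thyroid hormone and the retinol-binding protein. Hippocampal neurons are not known as a main source of these transcripts, although some members, Kl among them, are also expressed by neurons.

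Polyadenylated RNA came from the hippocampus of mouse pups killed on postnatal day 14. Pups with moderate phlebotomy-induced anemia (mPIA) were bled from the facial vein until the haematocrit, the share of red cells in blood, reached 25%. In severe anemia (sPIA) the goal was 18%. From postnatal day 3 they gave 5.25 µl of blood per g of weight 2 times daily, and 3.5 µl per g daily after the goal had been met. Non-bled controls (NBC) had only a prick at the neck. The 23 libraries fell into 6 groups by anemia level and sex, with 4 libraries in each of NBC, mPIA and sPIA females and of mPIA and sPIA males, and 3 in NBC males (numbered 2, 3 and 4). The labels give neither a strain nor a genotype, and a library was read as 1 mouse from the design text.

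Library totals were 15.2 to 26.4 M counts (M, mega-counts), except for mPIA female 3 with 44.4 M. The labels also carry library codes of unstated meaning. Their prefixes overlapped between groups only for mPIA and NBC females (prefixes 86, 90 and 91) and for sPIA mice of both sexes with NBC males (prefixes that begin with P). In the other comparisons the prefixes and the group cannot be told apart. The codes also end in a number after an S, lower in all sPIA libraries than in all NBC and mPIA libraries. By this number, the code series and sPIA cannot be told apart in any comparison, sPIA against NBC males included. Markers of hippocampal neurons were present in all libraries: their 16 genes summed to 1160 to 1654 CPM (counts per mega-count of the library, scaled by edgeR's TMM factors, as are all CPM here). Prox1, a transcription factor of dentate granule cells, lay between 60.7 and 128 CPM.

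Ttr encodes transthyretin, and its gene lies at chr18:20665280-20674321 on the plus strand (build mm10, GENCODE M21, as for all genes here). In females Ttr lay at 43.03, 2025, 37.4 and 21.7 CPM in the NBC libraries 1 to 4, at 174, 231, 26.4 and 12.02 CPM in the mPIA libraries 1 to 4 and at 106, 1324, 2.29 and 28.6 CPM in the sPIA libraries 1 to 4. Within the NBC and the sPIA females, library 2 stood far above the others, and all 3 female groups overlapped. In males Ttr lay at 1.23, 2464 and 4378 CPM in the NBC libraries 2, 3 and 4, at 8.07, 22.6, 29.4 and 1.37 CPM in the mPIA libraries 1 to 4 and at 135, 111, 16.1 and 6.16 CPM in the sPIA libraries 1 to 4. The NBC males held both the highest and the lowest Ttr level of the 23 libraries, 3549-fold apart, with 83652 counts in NBC male 4 and 25 counts in NBC male 2. The exact Poisson interval of the lowest level, which covers counting error only, was 0.798 to 1.82 CPM.

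By mean log2 CPM (prior count 2, as for all log2 CPM here) the groups stood in the order NBC males at 7.92 ± 6.52 (SD, n = 3), NBC females at 6.52 ± 3.01 (SD, n = 4), mPIA females at 5.91 ± 2.07 (SD, n = 4), sPIA females at 5.798 ± 3.801 (SD, n = 4), sPIA males at 5.13 ± 2.16 (SD, n = 4) and mPIA males at 3.24 ± 1.96 (SD, n = 4). Each gap between neighbours in this order was smaller than the SD of either neighbour. In bulk tissue, fewer epithelial cells in a sample and less RNA per cell cannot be told apart.

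**Figure D1:**
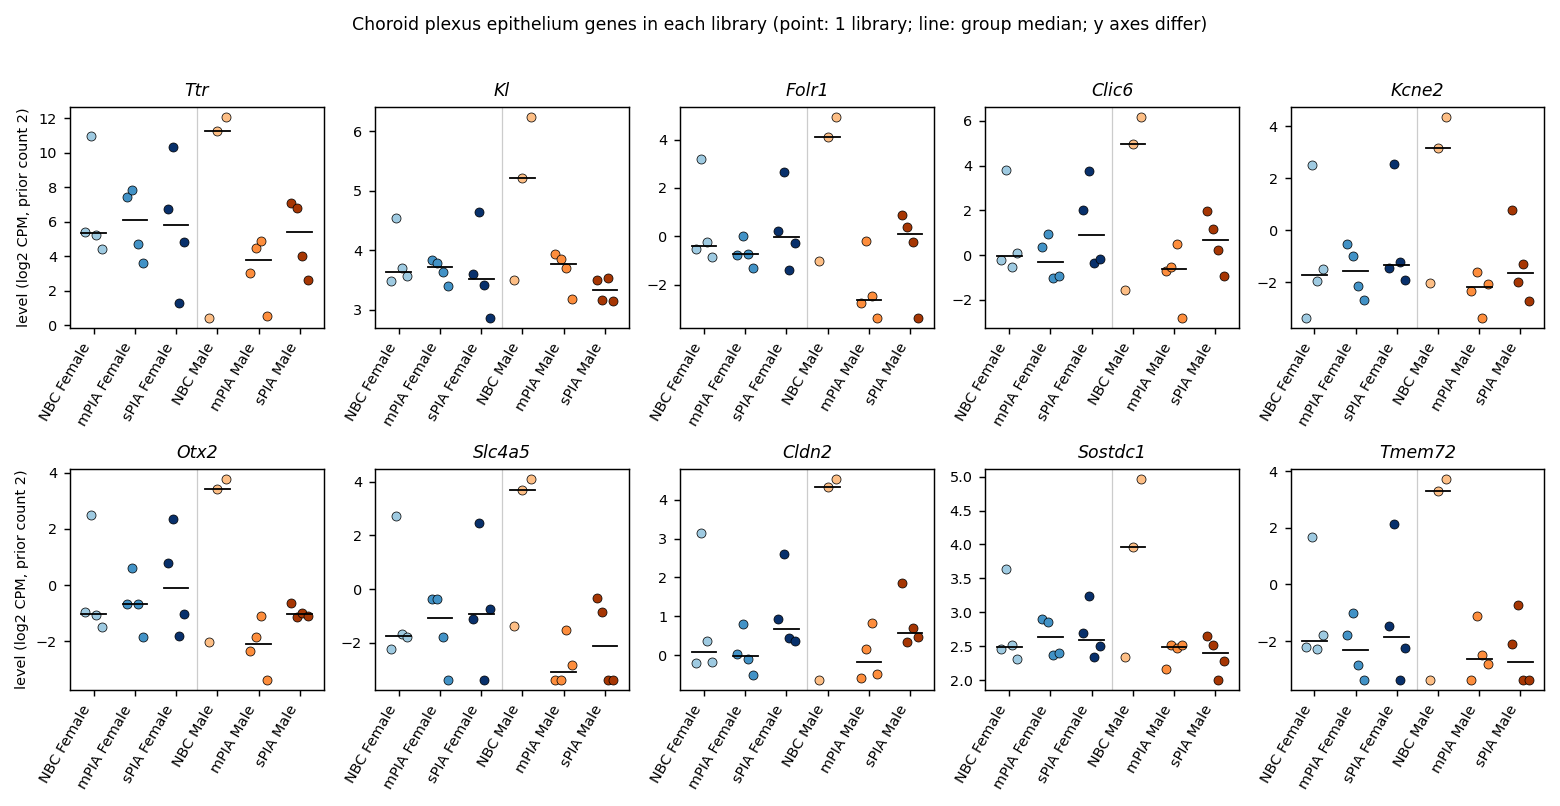
Level of each of the 10 genes in log2 CPM (vertical axis, a scale of its own in each panel) in the 6 groups (horizontal axis), with 1 point per library and a line at the group median. NBC male 4 is the highest library in all 10 panels, while NBC male 2 lies among the low libraries, for Ttr at 1.23 CPM.

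Among the genes of ion and solute transport, Clic6, an intracellular chloride channel protein gene at chr16:92485736-92541243 on the plus strand, varied most after Ttr. In females Clic6 lay at 0.768, 13.9, 0.596 and 0.976 CPM in the NBC libraries 1 to 4, at 1.17, 1.83, 0.395 and 0.423 CPM in the mPIA libraries 1 to 4 and at 3.98, 13.3, 0.700 and 0.786 CPM in the sPIA libraries 1 to 4. In males it lay at 0.247, 31.1 and 72.4 CPM in the NBC libraries 2, 3 and 4, at 0.514, 0.601, 1.34 and 0.0473 CPM in the mPIA libraries 1 to 4 and at 3.87, 2.18, 1.06 and 0.428 CPM in the sPIA libraries 1 to 4. The libraries high in Clic6 were those high in Ttr: NBC males 3 and 4, NBC female 2 and sPIA female 2. The groups overlapped.

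Folr1, the folate receptor that the plexus uses to carry folate into the fluid (chr7:101858331-101870788, minus strand), lay at 17.1 CPM in NBC male 3, 30.7 in NBC male 4, 9.01 in NBC female 2 and 6.19 in sPIA female 2. In the other 19 libraries Folr1 was at most 1.75 CPM, and it had no count in mPIA male 4 and sPIA male 4. Slc4a5, a sodium bicarbonate cotransporter of the epithelium's surface (chr6:83219828-83304945, plus strand), reached 12.8 and 17.01 CPM in the NBC males numbered 3 and 4, 6.47 CPM in NBC female 2 and 5.36 CPM in sPIA female 2. In the others Slc4a5 was at most 0.691 CPM, with no count in 6 of the 23 libraries. Kcne2, a potassium channel subunit (chr16:92292389-92298129, plus strand), had 8.93 and 20.4 CPM in the NBC males numbered 3 and 4, 5.61 CPM in NBC female 2 and 5.70 CPM in sPIA female 2. Its next library was sPIA male 1 at 1.61 CPM. Thus the same 4 libraries led all of these genes.

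Cldn2, a claudin that forms cation-permeable tight junctions (chrX:139800828-139811386, plus strand), lay at 20.01 and 23.1 CPM in the NBC males numbered 3 and 4, 8.74 CPM in NBC female 2 and 5.99 CPM in sPIA female 2. Unlike Folr1, Slc4a5 and Kcne2 it was counted in all 23 libraries, down to 0.543 CPM in NBC male 2. For Otx2, a homeodomain transcription factor needed for plexus development (chr14:48657677-48673819, minus strand), levels were 10.7 CPM in NBC male 3, 13.6 CPM in NBC male 4, 5.55 CPM in NBC female 2 and 4.98 CPM in sPIA female 2, and at most 1.64 CPM elsewhere. Exons of Otx2 share 154 bases (3.6% of its exon length) with the antisense gene Otx2os1, and no source used here states whether counting used strand. Tmem72, a transmembrane protein gene (chr6:116679063-116716913, minus strand), lay at 9.80 and 13.1 CPM in the NBC males numbered 3 and 4, 3.13 CPM in NBC female 2 and 4.35 CPM in sPIA female 2. In the others Tmem72 was at most 0.506 CPM and was at 0 in 6.

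Kl, which encodes the FGF23 co-receptor klotho (chr5:150952607-150993817, plus strand), and Sostdc1, a secreted BMP and Wnt antagonist (chr12:36314139-36318452, plus strand), kept a level in every library. In females Kl lay at 11.1, 23.3, 12.997 and 11.8 CPM in the NBC libraries 1 to 4, at 14.1, 13.8, 12.3 and 10.5 CPM in the mPIA libraries 1 to 4 and at 12.1, 24.8, 10.6 and 7.19 CPM in the sPIA libraries 1 to 4. In males it lay at 11.2, 37.1 and 75.7 CPM in the NBC libraries 2, 3 and 4, at 15.2, 14.33, 12.9 and 8.99 CPM in the mPIA libraries 1 to 4 and at 11.2, 8.86, 11.503 and 8.73 CPM in the sPIA libraries 1 to 4. Outside the 4 leading libraries Kl therefore stayed between 7.19 and 15.2 CPM, while Ttr ran over a far wider range there.

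Sostdc1 lay at 15.6 and 31.1 CPM in the NBC males numbered 3 and 4, 12.3 CPM in NBC female 2 and 9.33 CPM in sPIA female 2. Its other 19 libraries lay between 3.90 and 7.39 CPM. The highest library exceeded the lowest 7.98-fold for Sostdc1 and 10.5-fold for Kl, against 42.6-fold for Cldn2, 1532-fold for Clic6 and 3549-fold for Ttr. For the other 5 members the lowest library was at 0, so that no such ratio is given. A single count was worth 0.022 to 0.0651 CPM, and 3 counts, the one-sided 95% limit that a count of 0 allows, 0.0659 to 0.195 CPM. Of the 230 values of the 10 genes in 23 libraries, 17 were 0.

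**Figure D2:**
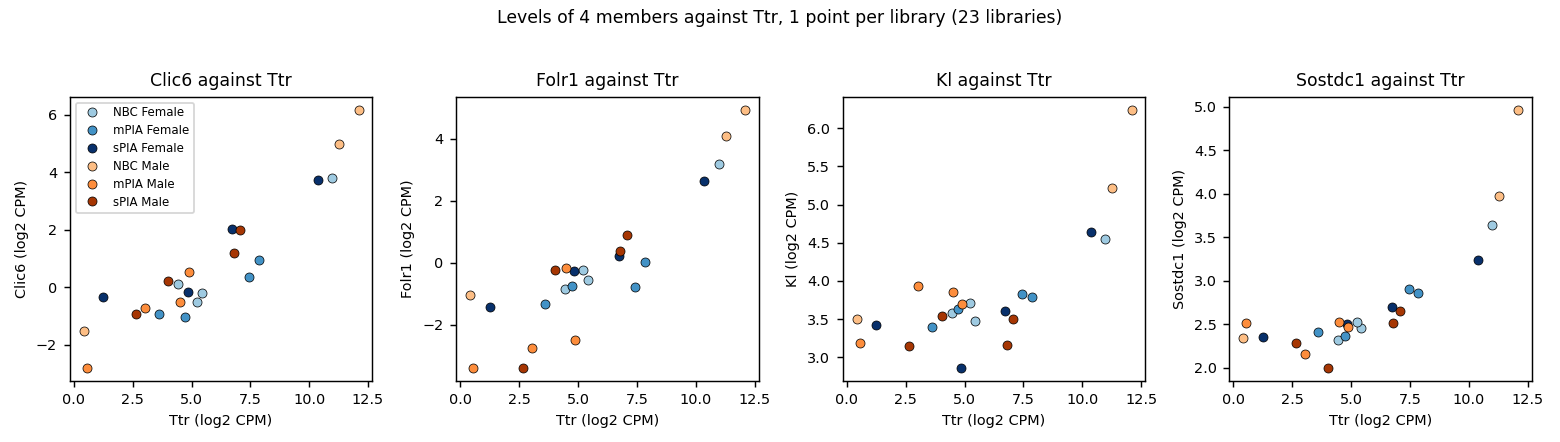
Levels of Clic6, Folr1, Kl and Sostdc1 (vertical axes, log2 CPM) against Ttr (horizontal axes, log2 CPM), with 1 point per library coloured by group. Clic6 and Folr1 follow Ttr over most of its range, while Kl stays between 7.19 and 15.2 CPM and Sostdc1 between 3.90 and 7.39 CPM except in the 4 libraries with the most Ttr.

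Per length, as CPM per kilobase of merged exons, Ttr was the first of the 10 genes in 20 libraries and Sostdc1 in the remaining 3. On this scale Ttr ran from 1.04 to 3692 and Sostdc1 from 2.19 to 17.5. The median over libraries was 24.8 CPM per kilobase for Ttr, 3.15 for Sostdc1, 1.30 for Kl, 0.358 for Cldn2, 0.318 for Folr1 and 0.249 for Clic6. Tmem72, with 17.2 kilobases of merged exons, was lowest at 0.00688. Ttr made up 93.6% to 95.8% of the CPM summed over the members in the 4 leading libraries. In NBC male 2 the share was 6.43%, in mPIA male 4 8.12% and in sPIA female 3 11.1%, where Kl and Sostdc1 supplied most of the sum.

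The spread between libraries of the same group was set beside that of all 15475 genes that passed a low-count filter, which all 10 members passed. The within-group SD of Ttr, 3.38 on the log2 CPM scale, was the highest of all genes tested. Clic6 (2.05) and Tmem72 (2.04) followed at ranks 2 and 3, Slc4a5 (2.00) at rank 6, Kcne2 (1.98) at 7, Folr1 (1.85) at 9, Otx2 (1.68) at 12 and Cldn2 (1.37) at 28. The median over all genes was 0.167 and the 95th percentile 0.758. Kl (0.633, rank 1337) and Sostdc1 (0.576, rank 1609) lay below that percentile. The filter needs about 0.508 CPM in enough libraries, a level that Tmem72 exceeded in 5 libraries, Kcne2 in 6, Slc4a5 in 7, Otx2 in 9, Folr1 in 14, Clic6 in 18 and the other members in all 23.

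**Figure D3:**
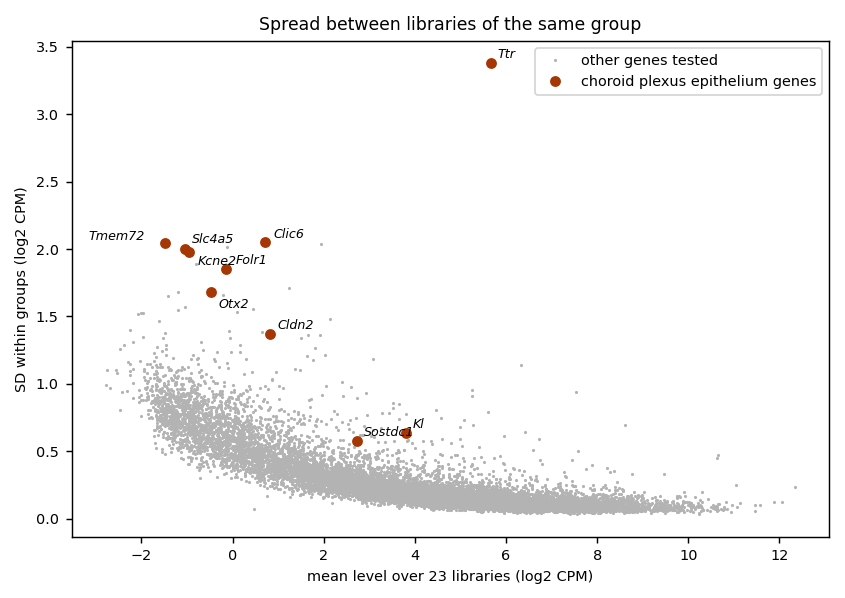
SD between libraries within groups (vertical axis, log2 CPM) against the mean level over 23 libraries (horizontal axis, log2 CPM) for the 15475 genes tested, with the 10 members in red. Ttr is the highest point at 3.38, and 8 members are among the top 100 genes, while Kl and Sostdc1 lie closer to the other genes of their level.

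The members were compared with each other over the 23 libraries, each with the mean standardized log2 CPM of the other 9. Pearson's r was 0.959 for Clic6, 0.956 for Tmem72, 0.952 for Otx2, 0.946 for Cldn2, 0.939 for Slc4a5, 0.931 for both Folr1 and Sostdc1, 0.926 for Kcne2, 0.913 for Ttr and 0.874 for Kl. These are descriptions, since all points come from 1 table of libraries that share genes, groups and code series. Without NBC males 3 and 4, the libraries farthest from the median, the median r over the members was 0.883, against 0.935 with all libraries. Without the 4 libraries with the most Ttr it was 0.698, from 0.874 for Ttr and 0.824 for Clic6 down to 0.527 for Kcne2 and 0.18 for Kl. Thus Kl followed the others closely only when those 4 libraries were included. Spearman's rho was 0.934 for Ttr and 0.571 for Kl.

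Among genes outside the 10, Enpp2, which encodes the secreted lysophospholipase autotaxin, was most like them (r = 0.971 with the members' mean over 23 libraries). Enpp2 lay at 831 and 1881 CPM in the NBC males numbered 3 and 4, 417 CPM in NBC female 2 and 567 CPM in sPIA female 2, and at 90.2 to 201 CPM in the others. Next came Sulf1 (r = 0.942), a heparan sulfate sulfatase, F5 (0.941), coagulation factor V, Prlr (0.940), the prolactin receptor, and Prr32 (0.934). Defb11 (0.931), Msx1 (0.925), Abca4 (0.921), Wdr86 (0.920), Lbp (0.919), Col8a1 (0.918) and Aqp1 (0.918), the water channel of the plexus, completed the 12 nearest. In all, 52 genes outside the 10 had an r above 0.8, and the median over all genes was -0.03.

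Of 29 other genes known from the choroid plexus epithelium that passed the filter, 22 had an r above 0.8, with a median of 0.881. Without the 4 libraries with the most Ttr, only Enpp2 of these 22 kept an r above 0.8 (0.825). Igfbp2 was then at 0.078 and Slc31a1 at 0.023. Stra6, the receptor of the retinol-binding protein, was not among these 22 and lay between 5.14 and 10.6 CPM. Of 19 ependymal and motile cilia genes, which mark the ciliated lining of the ventricles, 1 had an r above 0.8 (median 0.587). None of 18 meningeal and stromal fibroblast genes (median 0.491), 7 border macrophage genes (0.398), 4 fenestrated vessel genes (0.123), 10 thalamus and habenula genes (0.106), 10 striatum genes (0.11) or 16 hippocampal neuron genes (-0.13) did. All these medians include the 4 libraries with the most Ttr. Without them, r ran from -0.591 (Slc29a4) to 0.825 (Enpp2) among the other plexus genes. Among the ependymal genes it then ran from -0.163 (Pifo) to 0.642 (Foxj1). The middle value was then 0.423 (Slc13a4) among the other plexus genes and 0.503 (Rsph1) among the ependymal genes. The other plexus genes therefore lay above the ependymal genes only when those libraries were included.

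**Figure D4:**
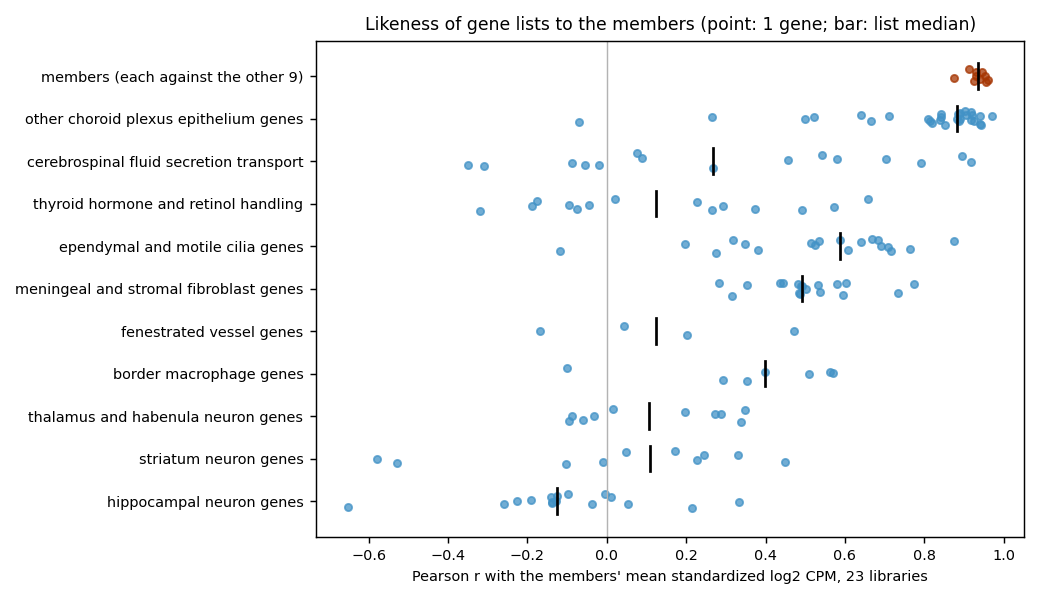
Pearson's r of each gene with the members' mean standardized log2 CPM over 23 libraries (horizontal axis), by gene list (vertical axis), with a bar at each list's median. The members and the other choroid plexus epithelium genes lie highest (medians 0.935 and 0.881), followed by the ependymal genes (0.587), and the hippocampal neuron genes are centred near 0. This order includes the 4 libraries with the most Ttr, without which many of the plexus genes had a far lower r. Without them the middle value was 0.423 for the other plexus genes and 0.503 for the ependymal genes.

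The promoters of members were looked at as a description of what the members share, and no link to their levels was tested. RefSeq promoter windows around the transcription start (build GRCm38.p6) were at hand for 6 of the 10 genes, as 10 windows. They were searched on both strands for TAATCC, the homeodomain motif that Otx2 binds, ACGTG, the core of the hypoxia response element, and TGTTTAC, a forkhead motif. The motifs do not overlap each other in their letters as searched. The stretches shown are those in which a match lies within the 100 bases displayed, with the match in capitals, read 5′ to 3′ on the gene's strand: Otx2 at chr14:48665260-48665359 (minus strand), Kcne2 at chr16:92292289-92292388 (plus) and Tmem72 at chr6:116716793-116716892 (minus).
Otx2: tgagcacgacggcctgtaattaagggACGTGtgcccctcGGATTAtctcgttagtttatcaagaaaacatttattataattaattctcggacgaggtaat
Kcne2: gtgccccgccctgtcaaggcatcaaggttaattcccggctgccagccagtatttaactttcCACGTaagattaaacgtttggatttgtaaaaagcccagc
Tmem72: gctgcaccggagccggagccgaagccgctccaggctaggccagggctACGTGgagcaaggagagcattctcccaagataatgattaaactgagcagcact
TAATCC, here as its reverse complement GGATTA, was found in the Otx2 window alone, 211 bases before the start, and is present in 7.06% of the 32851 windows of the table. ACGTG was found in 4 of the 10 windows (1 of Kcne2, 2 of Otx2, 1 of Tmem72) and in 19.6% of all windows. TGTTTAC was in none of the 10 and in 3.65% of all. A match describes letters only. Kcne2 and Clic6 are neighbours on chromosome 16, 188 kilobases apart, with 4 protein-coding genes between them (Smim11, Fam243, Kcne1 and Rcan1).

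The first comparison asks what moderate anemia did in males. Relative to NBC males, all 10 members had a lower fitted level in mPIA males, with a median log2 change of -5.79, and 0 of 10 passed edgeR's quasi-likelihood test at an adjusted p of 0.05. The adjustment (Benjamini-Hochberg) ran over all 15475 genes, of which 0.653% passed in this comparison. All 10 had an unadjusted p under 0.05, as had 2475 of all 15475 genes. The members vary together, so these 10 are not independent. Their adjusted p-values ran from 0.0597 (Sostdc1) to 0.141 (Ttr). Ttr had a log2 change of -7.20 (SE 2.35), Slc4a5 of -6.86 (SE 1.84), Folr1 of -6.08 (SE 1.48), Kl of -1.68 (SE 0.46) and Sostdc1 of -1.70 (SE 0.41).

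The levels overlapped for 9 of the members, with NBC male 2 at or below the level of an mPIA male in each. Slc4a5 was the exception, with 0, 0, 0.251 and 0.0473 CPM in mPIA males 1 to 4 against 0.296, 12.8 and 17.01 CPM in NBC males 2, 3 and 4. That separation rests on 6 counts in mPIA male 3 and 6 counts in NBC male 2, and 9.8% of all genes had groups that did not overlap. For Ttr, the difference in mean log2 CPM was -4.68 (mPIA minus NBC, n = 4 and 3), with p = 0.229 in a two-sided exact permutation test (adjusted p = 0.771 over 6 comparisons) whose smallest possible p was 0.0286. DESeq2 called 9 of the 10, all but Tmem72 (adjusted p = 0.0743), and limma-voom called 0. Without NBC male 2, edgeR called all 10 (Ttr adjusted p = 0.0441, Sostdc1 0.000237). Without any other single library it called 0.

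In sPIA males, the 10 members were again lower than in NBC males in the fit, with a median log2 change of -4.16, and 0 of 10 passed, as did 0.194% of all genes tested. All 10 had an unadjusted p under 0.05, as had 1880 of all 15475 genes. The adjusted p was lowest for Kl (-2.03, SE 0.47) and Sostdc1 (-1.75, SE 0.41), at 0.0837 for both, and highest for Ttr (-5.08, SE 2.11) at 0.344. Every member overlapped between the groups. DESeq2 called 2 (Kl and Sostdc1), limma-voom 0, and edgeR without NBC male 2 called 6 (Kl, Otx2, Cldn2, Clic6, Sostdc1 and Tmem72). For Ttr the exact permutation test gave a difference of -2.79 in mean log2 CPM (p = 0.4, adjusted p = 0.8).

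Severe against moderate anemia in males gave 0 of 10 members called, beside 4.92% of all genes. An unadjusted p under 0.05 was found for 3447 of all 15475 genes and for 0 of 10 members. DESeq2 and limma-voom also called 0. The median log2 change was 1.42, with 8 positive and 2 negative values, and was 0.72 without sPIA male 1. Ttr stood at 2.11 (SE 1.95) and Kl at -0.35 (SE 0.45). Between these groups the exact permutation test on Ttr gave a difference of 1.89 (p = 0.257, adjusted p = 0.771).

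In mPIA females, 0 of 10 members passed against NBC females, beside 0.00646% of all genes (1 gene). An unadjusted p under 0.05 was found for 55 of all 15475 genes and for 0 of 10 members. DESeq2 and limma-voom called 0. The fitted log2 changes were all negative, with a median of -2.23. Ttr had -2.27 (SE 1.83) and a 95% interval of -6.13 to 1.59, and Kl had -0.23 (SE 0.45) with an interval of -1.17 to 0.71. The median was 0.21 without NBC female 2, the library with 2025 CPM of Ttr. Within the shared code prefixes it was -1.51.

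For sPIA against NBC females, 0 of 10 members passed although 16% of all genes did. An unadjusted p under 0.05 was found for 4502 of all 15475 genes and for 0 of 10 members. DESeq2 and limma-voom called 0 here too. The median log2 change was -0.11, with 6 negative and 4 positive values between -0.54 (Ttr, SE 1.74, interval -4.22 to 3.13) and 0.40 (Tmem72, SE 1.38). Leaving out NBC female 2 gave a median of 2.48, and leaving out sPIA female 2 gave -1.59. These are the libraries that lead the members in their groups.

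Against mPIA females, sPIA females had 0 of 10 members called by edgeR, DESeq2 or limma-voom, beside 16.1% of all genes called by edgeR. An unadjusted p under 0.05 was found for 4557 of all 15475 genes and for 0 of 10 members. The fitted changes were all positive, with a median of 1.82, and the median was -0.11 without sPIA female 2. Ttr was at 1.73 (SE 1.80) in this fit, while the difference in mean log2 CPM was -0.11 (exact permutation test, p = 0.971, adjusted p = 0.971). For the comparisons of mPIA and sPIA with NBC females, the same test gave Ttr differences of -0.62 and -0.72 (exact p = 0.771 and 0.8286, adjusted p = 0.971 for both).

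**Figure D5:**
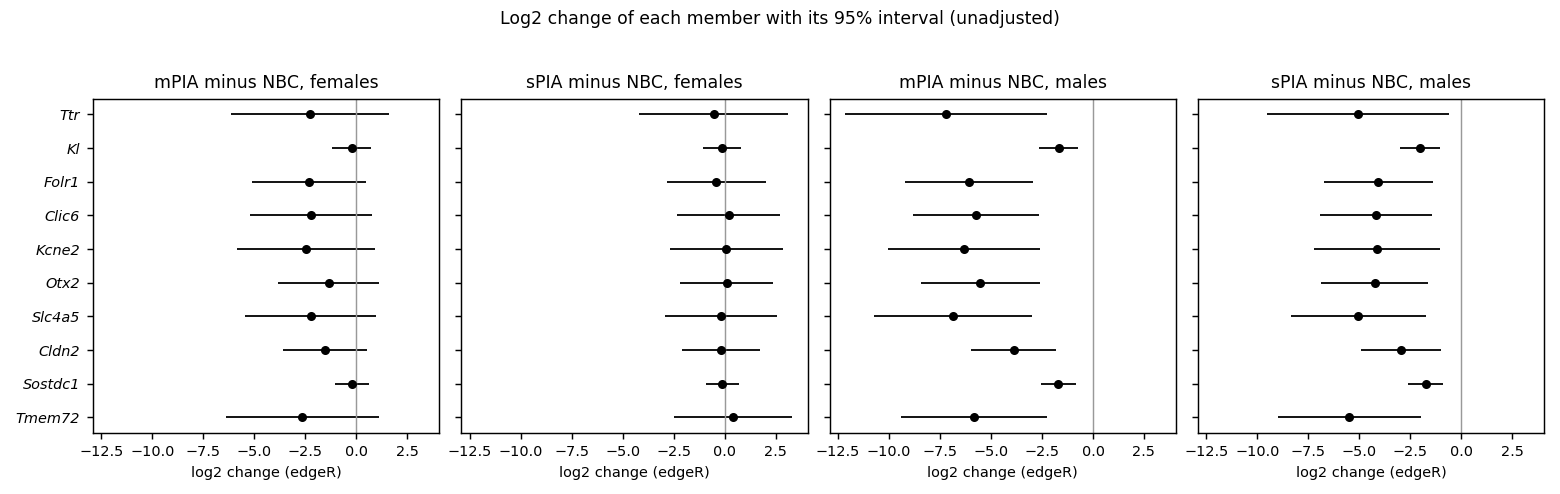
Log2 change of each member (horizontal axis, edgeR) with its unadjusted 95% interval, for mPIA and sPIA minus NBC in females and in males. In males the 10 intervals of both comparisons lie below 0, though no member passed after adjustment over all genes. In females all intervals include 0.

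The difference between the sexes in the effect of anemia (female minus male log2 change) was tested as an interaction. For mPIA, 0 of 10 members passed, beside 0% of all genes. An unadjusted p under 0.05 was found for 1103 of all 15475 genes and for 3 members (Kl, Otx2 and Sostdc1). The members' median was 3.64, and DESeq2 and limma-voom called 0 of them. For sPIA, 0 of 10 members passed, beside 0.95% of all genes. An unadjusted p under 0.05 was found for 2559 of all 15475 genes and for 9 members (all but Ttr). The members' adjusted p-values ran from 0.151 (Kl, 1.92, SE 0.65) to 0.412 (Ttr, 4.54, SE 2.64). Their median log2 difference was 4.30. DESeq2 called 0 for sPIA, with 6 members given no adjusted p, and limma-voom called 0. Without NBC male 2, edgeR called 1 member for mPIA (Sostdc1) and 2 for sPIA (Kl and Sostdc1).

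Further genes of the epithelium were tested beside the members. In mPIA males, all 29 other choroid plexus genes tested were lower than in NBC males in the fit (median of the list -2.56). Of these, 8 fell (Lmx1a, Krt8, Krt18, F5, Abca4, Cab39l, Trpm3 and Slc31a1), beside 0.653% of all genes called. F5 lay at 1.44, 0.878, 1.55 and 1.04 CPM in mPIA males 1 to 4 and at 1.33, 17.8 and 29.7 CPM in NBC males 2, 3 and 4, with a log2 change of -3.72 (SE 0.82, adjusted p = 0.047). Lmx1a, a homeodomain factor of the roof plate from which the plexus forms, fell by 5.71 on the log2 scale (SE 1.13, adjusted p = 0.018). NBC male 2, at 0.197 CPM of Lmx1a, was near the mPIA males, which were at 0 to 0.103 CPM. The count of 8 was 26 without NBC male 2 and 0 or 1 without any other single library. It was 22 with DESeq2 and 1 with limma-voom. In sPIA males 0 of the 29 passed against NBC males, beside 0.194% of all genes. All 29 were lower, and 26 had an unadjusted p under 0.05, as had 1880 of all 15475 genes.

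Ependymal, fibroblast and border macrophage genes were lower beside them in mPIA males, and so were 3 of 4 fenestrated vessel genes. The neuron lists were not: 13 of 16 hippocampal neuron genes were higher (median log2 change 0.115). Of the striatum genes and of the thalamus and habenula genes, 5 were higher and 5 lower in each list. All 19 ependymal genes were lower than in NBC males in the fit and 6 fell, beside 0.653% of all genes called. Among the 6 was Foxj1, the master regulator of motile cilia. Foxj1 lay at 4.11, 5.87, 7.65 and 5.01 CPM in mPIA males 1 to 4 against 8.44, 11.49 and 18.2 CPM in NBC males 2, 3 and 4. These levels had no overlap, as was so for 9.8% of all genes. Its log2 change was -1.16 (SE 0.26, adjusted p = 0.0391), and it passed in 2 of 7 edgeR fits without a single library (highest adjusted p = 0.303). All 19 ependymal markers summed to 26.7 to 40.5 CPM in mPIA males and to 44.3 to 131 CPM in NBC males. The 18 fibroblast markers summed to 307 to 471 CPM in mPIA males and to 402 to 939 CPM in NBC males, all lower in the fit. Of these 18, edgeR called 0, and 11 had an unadjusted p under 0.05, as had 2475 of all 15475 genes. The 7 border macrophage genes were all lower in the fit as well (median -1.22), and their list summed to 4.07 to 12.95 CPM in mPIA males and 11.9 to 32.0 CPM in NBC males. Of these Pf4, a chemokine gene that platelets also carry, fell by 2.19 (SE 0.53, adjusted p = 0.0472). Pf4 passed in 2 of 7 edgeR fits without a single library (highest adjusted p = 0.238). The part of these lists in the members' values was not tested. In sPIA against NBC males, 0 ependymal, fibroblast or macrophage genes were called by edgeR, beside 0.194% of all genes. In that order, 4, 4 and 0 had an unadjusted p under 0.05, as had 1880 of all 15475 genes. Lower in the fit were 11 of 19, 17 of 18 and 7 of 7. Of the ependymal genes DESeq2 called 1 there and limma-voom 0. The count of 6 ependymal genes in mPIA against NBC males was 0 without NBC male 4 or mPIA male 4, 1 without mPIA male 1, 2 without mPIA male 2 and 11 without NBC male 2, was 10 with DESeq2 and was 0 with limma-voom.

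In sPIA males, 18 of 19 ependymal genes were higher than in mPIA males and 5 rose, beside 4.92% of all genes, with a median of 1.28. The members' median was 1.42 in the same comparison, with 8 of 10 higher and 0 called. The count of 5 was 1 without mPIA male 1, 2 without mPIA male 2 or sPIA male 1, 3 without mPIA male 4 or sPIA male 2 or 3, and 8 without sPIA male 4. It was 10 with DESeq2 and 3 with limma-voom. Ak7, an adenylate kinase of motile cilia, lay at 5.95, 5.06, 6.08 and 4.07 CPM in sPIA males 1 to 4 against 1.34, 1.06, 2.13 and 1.04 CPM in mPIA males 1 to 4 (log2 change 1.91, SE 0.36, adjusted p = 0.00481). These groups did not overlap, as was so for 10.6% of all genes in this comparison. Dnah6, an axonemal dynein heavy chain, rose by 2.23 (SE 0.48, adjusted p = 0.0148, and 0.0558 without mPIA male 1). Ak7 was also higher in sPIA than in mPIA females, by 1.30 (SE 0.34, adjusted p = 0.00951), the only 1 of the 19 ependymal genes called there, where 16.1% of all genes were called. Whether the ependymal change differs from the members' was not tested.

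Of the genes that act with transthyretin on thyroid hormone and retinol, Rbp4 stood out in females. It encodes the plasma retinol-binding protein that transthyretin binds. In sPIA females 1 to 4, Rbp4 lay at 2.02, 2.32, 2.24 and 2.47 CPM, against 7.45, 3.83, 7.42 and 6.44 CPM in NBC females 1 to 4. The groups did not overlap, as was so for 21% of all genes in this comparison. NBC female 2, the NBC female highest in Ttr, was the lowest of its group in Rbp4. Rbp4 fell by 1.47 on the log2 scale against NBC females (SE 0.27, adjusted p = 0.000716) and by 1.85 against mPIA females, which lay at 7.43 to 9.69 CPM (SE 0.27, adjusted p = 4.93e-05). In sPIA males it lay at 4.43, 8.099, 2.03 and 3.70 CPM and did not pass against NBC males (log2 change -0.26, SE 0.28, adjusted p = 0.762), at 4.24, 5.91 and 6.18 CPM. The difference between the sexes did not pass either (-1.22, SE 0.39, adjusted p = 0.117). In sPIA females, 3 of the 14 genes tested of this list fell against NBC (Rbp4, Thra and Crym) and 0 rose, near the 16% called among all genes. Rbp4 passed in all 8 fits without a single library. Crym passed in 5 of them, failing without NBC female 2 or sPIA female 2 or 4 (highest adjusted p = 0.106), and Thra passed in 2, those without NBC female 3 and without sPIA female 1 (highest adjusted p = 0.152 in the other 6).

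Of 15 genes of cerebrospinal fluid secretion transport, 1 rose and 3 fell in sPIA against NBC females, beside 16% of all genes, and 3 are described. Kcna1, a voltage-gated potassium channel gene, rose by 0.42 (SE 0.06, adjusted p = 8.4e-05). Clcn2, a chloride channel gene, fell by 0.52 (SE 0.09, adjusted p = 0.000534) and Kcna3, another voltage-gated potassium channel gene, by 0.58 (SE 0.17, adjusted p = 0.0212). Neurons and glia also express these genes. The members were not among these calls.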

How the data were processed

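Polyadenylated RNA of 23 hippocampal libraries was counted per gene. The deposited values are whole-number counts that the authors had not normalized, as the values show. Per the submitters' processing notes, the tools were FastQC, TopHat2 2.0.13, Subread and edgeR, on mm10. No source used here states the annotation, the strand setting or the treatment of multiply mapped reads. Groups came from the labels, and 0 columns were unmatched. All 23 libraries entered 1 fit of edgeR 4.0.16 (R 4.3.3): TMM factors, filterByExpr (minimum count 10, minimum total 15), robust quasi-likelihood test, Benjamini-Hochberg adjustment over 15475 genes at 0.05. The edgeR p-values set group differences against the spread between these libraries. Alternatives were median-ratio size factors, no filter, DESeq2 1.42.0, limma-voom (limma 3.58.1), fits of the compared groups only, a replicate block, a block of code prefix, and leaving out single libraries. Ttr was also tested by exact permutation of log2 CPM. The edgeR step was tested on simulated data. Positions are from GENCODE M21 and promoters from RefSeq.

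The members and gene lists were chosen with earlier results of these data known. The text names all members, the called genes of each list with the smallest p (at most 4 per list and comparison), the 12 genes most like the members, and Foxj1, Col1a2, Prox1 and Prkcd. Not all of these are reported here. Named outside the rule, after their values were seen, were Stra6, all 8 plexus genes called in mPIA males and the genes between Kcne2 and Clic6. Of the listed genes, 2900040C04Rik, Dnah12 and Plpp3 had no row under that name, and Ecrg4 was taken from its older symbol 1500015O10Rik. Same-numbered libraries of different groups deviated with r from -0.08 to 0.15 over 22 pairs, and no comparison had every r over 0.1, so the numbers were not taken to pair mice. The same-numbered mPIA and NBC females also share code prefixes, with r of 0.108, 0.036, 0.116 and 0.149.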

Additional observations from a re-analysis of the deposited data

Results flagged for a closer look

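In groups of 4, the gap from the highest or the lowest library to its nearest neighbour, as a share of the group's range in CPM, was compared with Dixon's 95% critical value for 4 samples. Of 50 pairs of member and group examined, 20 exceeded it. The chance rate of 1 in 20 behind this value assumes normally distributed values. It was not checked for CPM, where single libraries stood far above the rest, so the 20 were not set against it. The pairs are not independent, since the members vary together. NBC males, with 3 libraries, were not examined.

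NBC female 2 was the highest of its group and exceeded the value for all 10 members, with shares of 0.989 for Ttr, 0.985 for Slc4a5, 0.971 for Clic6, Otx2 and Tmem72, 0.965 for Folr1, 0.954 for Kcne2, 0.947 for Cldn2, 0.90 for Sostdc1 and 0.842 for Kl. sPIA female 2 was the highest of its group for all 10 members and exceeded the critical value for 6, with 0.971 for Kcne2, 0.939 for Tmem72, 0.922 for Ttr, 0.906 for Slc4a5, 0.870 for Cldn2 and 0.868 for Folr1. sPIA male 1, the highest of its group for 8 members, exceeded it for Cldn2 (0.848) and Kcne2 (0.839). In mPIA males, library 2 exceeded it as the highest for Folr1 (0.894) and library 1 as the lowest for Sostdc1 (0.838). No difference between the sexes in a member's anemia effect passed its test.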

How the results depend on the processing

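Median-ratio size factors and no filter on low counts left the count of members called at 0 in all 8 comparisons, as did limma-voom, fits of the compared groups only and the replicate block. DESeq2 called 9 members in mPIA against NBC males and 2 in sPIA against NBC males. A prior count of 0.5 kept the sign of all 6 Ttr differences. The median r of the members, 0.935, became 0.883 without the 2 libraries farthest from the median and 0.698 without the 4 with the most Ttr, chosen after the data were seen. The cause of these moves was not tested. Among the settings that keep all libraries, signs of members turned only with limma-voom: sPIA against mPIA females gave -0.012 for Kl and -0.066 for Ttr, sPIA against NBC females 0.28 for Cldn2 and -0.49 for Tmem72, and sPIA against mPIA males -0.10 for Tmem72.

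The number of all genes called moved more. In mPIA against NBC females it was 1, and 6 with the code prefix as a block, 2 with the compared groups only, and 0 with limma-voom or the replicate block. In mPIA against NBC males it was 101, and 381 with DESeq2, 24 with limma-voom, 43 with the replicate block and 0 with the compared groups only. In sPIA against NBC males it was 30, and 155 (DESeq2) and 6 (compared groups only), and in sPIA against mPIA males 762, and 1220 and 307 in the same fits. For the sex difference of the sPIA effect it was 147, and 463 (DESeq2), 93 (replicate block) and 5 (compared groups only). The replicate numbers were not taken to pair the mice, and the median member change with the replicate block was -6.79 in mPIA males and -1.38 in mPIA females against NBC.

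Single libraries were left out in turn. Members called ran from 0 to 10 in mPIA males and 0 to 6 in sPIA males against NBC, 0 to 1 for the sex difference of the mPIA effect and 0 to 2 for that of the sPIA effect. The count stayed at 0 in the other 4 comparisons. All genes called ran from 0 to 1 in mPIA females, 1421 to 2705 in sPIA females, 0 to 1124 in mPIA males and 4 to 249 in sPIA males against NBC. The range was 1582 to 2769 in sPIA against mPIA females and 230 to 1340 in males, and 0 to 69 and 5 to 327 for the sex differences of the mPIA and sPIA effects. The members' median ran from -2.60 to 0.21 in mPIA females and from -1.59 to 2.48 in sPIA females against NBC, from -0.11 to 2.29 in sPIA against mPIA females and from 0.72 to 1.73 in sPIA against mPIA males. For the sex differences it ran from 2.70 to 5.94 (mPIA) and from 2.00 to 6.69 (sPIA).

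Signs of single members turned in these fits. In mPIA against NBC females the ranges were -2.92 to 1.69 for Ttr, -0.35 to 0.085 for Kl, -2.71 to 0.20 for Clic6, -3.03 to 0.98 for Kcne2, -1.92 to 0.88 for Otx2, -2.66 to 1.06 for Slc4a5, -1.86 to 0.11 for Cldn2, -0.34 to 0.22 for Sostdc1 and -3.50 to 0.021 for Tmem72. In sPIA against NBC females they were -3.55 to 3.43 for Ttr, -0.57 to 0.21 for Kl, -1.999 to 1.78 for Folr1, -1.18 to 2.61 for Clic6, -2.55 to 3.52 for Kcne2, -1.18 to 2.35 for Otx2, -2.64 to 3.12 for Slc4a5, -1.03 to 1.49 for Cldn2, -0.32 to 0.32 for Sostdc1 and -2.83 to 3.07 for Tmem72. In sPIA against mPIA females they were -1.28 to 2.38 for Ttr, -0.34 to 0.33 for Kl, -0.10 to 3.13 for Kcne2, -0.40 to 2.49 for Slc4a5, -0.12 to 0.21 for Sostdc1 and -0.19 to 3.90 for Tmem72. In sPIA against mPIA males they were -0.14 to 0.075 for Sostdc1 and -1.26 to 1.70 for Tmem72. Members with values at 0 rest on a few counts, which limits their precision.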
